A study of Arabidopsis thaliana with 27 samples.

Results

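The bright genes described here are those whose array signal varied least between the captured embryo tissues: 78 of the 22746 probe sets of the array that are not control probe sets. A probe set is the group of short probes that measures a transcript, and its signal is an intensity on a scale on which the trimmed mean of every array is about 100. Probe sets counted as bright when their median signal over 25 arrays was 500 or more, which left 592. Of these the 100 with the lowest standard deviation (SD) of log2(signal + 10) were taken, and 21 probe sets of cytosolic ribosomal protein genes and 1 of the plastid-encoded gene rpl32 were then left out. The same measurements chose the members and are described below, so their low spread is a property of the choice and carries no test.

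RNA of laser-dissected tissues of Arabidopsis thaliana embryos (Col-0, stock N1092) was hybridised to 27 ATH1 arrays, and 25 of them fall into 9 groups. At the globular stage there were 3 arrays of the apical and 3 of the basal part, and at the heart stage 3 of the cotyledon pole and 3 of the root pole. The torpedo stage held 3 arrays of the meristem, 3 of the apical part, 3 of the basal part, 2 of the cotyledon and 2 of the root. On 2 further arrays, titled torpedo cotyledon 2 and torpedo root 2, the title and the tissue description name opposite tissues, so they belong to no group. The labels give no genotype, transgene or treatment that separates the groups. The growth conditions given for globular apical 1 are not those of the others, and nothing in the labels says which captures came from the same plant, so the spread between arrays may be technical.

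In plant cells a core of genes serves every tissue: translation and RNA handling, protein turnover by ubiquitin and the proteasome, entry of proteins into the secretory pathway, energy metabolism in mitochondria and plastids, and chromatin. Genes of this kind are often used as references against which tissue-specific genes are measured. Growing embryos also make and remodel cell walls, for which cells secrete enzymes and structural proteins.

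The members were steady only beside other bright probe sets. Their SD was 0.74 to 1.51 with a median of 1.31, against a median of 2.16 in the 404 other bright probe sets and 1.81 in the 97 bright ribosomal protein probe sets. Between its lowest and its highest array, the signal of a member still spanned 7.35-fold to 177-fold, with a median of 39.03-fold, against a median of 478-fold in the other bright probe sets. Among the dimmest probe sets of the array, with a median signal under 50, the median SD was 1.00, and 94.7% of these lay at or below the highest SD of the members. That share was 23.2% among probe sets with a median of 500 to 1000 and 10.5% among those with 1000 or more. The 10 added before the log narrows the SD of dim probe sets most, so SDs of the dimmest are not a like measure. The name "steady across embryo tissues" therefore holds as a rank among bright probe sets and not as a constant level.

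Members also sat near the floor of brightness. Signals of different probe sets depend on their probes too, so brightness ranks probe sets and not transcript abundance. The median signal was under 1000 for 61 of 78 members (78.2%), against 215 of the 404 other bright probe sets (53.2%). Just inside the limit of SD were AT2G37470, a histone H2B gene (1.512), the unnamed probe set 258285_at (1.508) and scpl25, a serine carboxypeptidase-like gene (1.507). Just outside were the unnamed probe sets 247268_at (1.513), 252566_at (1.516) and 248105_at (1.516). The limit therefore falls within a continuous run of values and separates no distinct class. Only 6 of the 78 members were chosen again with a floor of 250, and 17 with a floor of 1000.

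**Figure D1:**
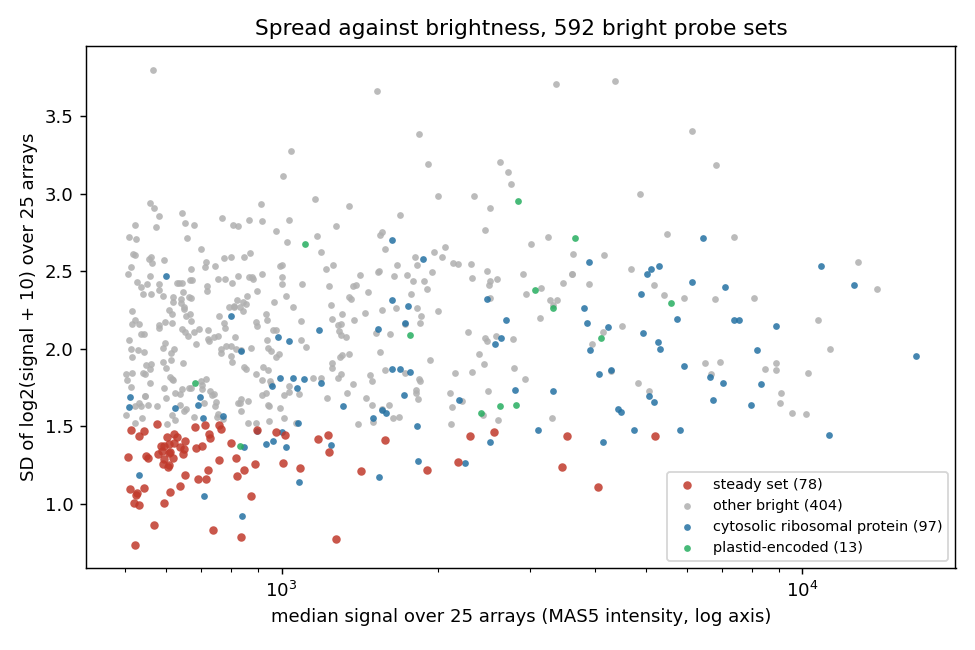
Each point is 1 of the 592 bright probe sets, with its median signal over 25 arrays on a log axis (MAS5 intensity) and its SD of log2(signal + 10) over the same arrays. Members reach up to an SD of 1.51, where ribosomal protein probe sets also lie, and 61 of the 78 lie left of a signal of 1000.

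The gene table pairs 34 of the 78 members with a single gene and 4 with several genes, and leaves 40 unnamed here. Of the 34 genes, 29 carry only a locus code, and a role is given below for 23, chosen after their values had been seen. Unnamed members could include ribosomal protein genes, which were left out by name. AT3G50250 is measured by a probe set of the _x_at type, whose probes can also bind other transcripts.

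Arrays of different quality took part. The hybridization controls had a geometric mean of 379.8 to 71930, and an array correlated with the others at a median of 0.295 to 0.626. It was under 0.4 on 4 of the 25 arrays: heart cotyledon 2, torpedo meristem 1, torpedo root 1 and torpedo root 3. Of 14 embryo tissue markers 5 had a single-gene probe set. BBM, a root pole transcription factor gene, read 6.30 and 9.10 on the torpedo root arrays, against 6.70 and 5.00 on the torpedo cotyledon arrays. It read 238, 69.8 and 531 on torpedo basal arrays, against 1.92, 3.97 and 1.11 on torpedo apical arrays. JKD read 92.0, 78.2 and 125 on torpedo basal arrays, against 21.3, 6.22 and 8.12 on torpedo apical arrays. On torpedo root arrays JKD read 14.0 and 23.1, against 9.40 and 139.6 on torpedo cotyledon arrays. YAB3, of lateral organs, read 757, 484 and 439.7 on torpedo apical arrays, against 20.0, 83.0 and 28.01 on torpedo basal arrays. The shoot meristem peptide gene CLV3 read 52.9, 132 and 510.1 on meristem arrays, against 3.79, 15.7 and 28.2 on torpedo apical arrays. LAS read 371, 129 and 277 on meristem arrays. On torpedo cotyledon arrays YAB3 read 53.6 and 150.1, CLV3 53.9 and 19.1, and LAS 144 and 246.6. On torpedo root arrays YAB3 read 45.4 and 126.8, CLV3 48.5 and 51.4, and LAS 299 and 17.9. None of the 5 markers set torpedo root apart from torpedo cotyledon, and CLV3 and LAS did not set every meristem array apart from these. At the globular stage BBM read 153.9, 67.6 and 22.8 on apical arrays, against 6.00, 2851 and 68.5 on basal arrays. JKD read 80.4, 13.8 and 22.7 on the former, against 9.10, 10.1 and 76.1 on the latter. Neither gene set the globular parts apart. On heart root arrays BBM read 557, 511 and 9.40, against 13.3, 60.4 and 10.7 on heart cotyledon arrays. JKD read 42.0, 168 and 507 on heart root arrays, against 2.50, 33.6 and 7.80 on heart cotyledon arrays. Of 8 markers of other seed tissues 2 were measured, the endosperm gene AGL62 and the seed coat gene BAN. Their summed signal was 54.6 to 480.6 on globular apical and 60.4 to 119.6 on globular basal arrays. At the heart stage the sum was 38.9 to 181.6 on cotyledon and 28.8 to 188.4 on root arrays. Among torpedo groups it was 93.7 to 131 on root, 17.1 to 99.1 on meristem and 16.8 to 69.7 on cotyledon arrays. Torpedo apical arrays gave 14.0 to 24.9 and torpedo basal arrays 3.43 to 32.4. The highest sums came mostly from 1 gene: BAN read 444.6 on globular apical 1 and 168.9 on heart cotyledon 1, and AGL62 180.2 on heart root 1. The part of other seed tissues in the members' levels was not tested.

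AT5G19510, which encodes the beta subunit of the exchange factor that recharges translation elongation factor 1, had the lowest SD of the members with a single gene (0.77). Its signal was 1558, 1765 and 1646 in globular apical and 1528, 1686 and 1919 in globular basal captures. At the heart stage it was 1271, 422 and 4762 at the cotyledon pole and 954, 1014 and 889.7 at the root pole. In torpedo embryos it was 591, 819.7 and 2054 in the meristem, 1506, 1364 and 1168 in the apical and 998, 1162 and 1079.5 in the basal part, 1752 and 1374 in the cotyledon and 406 and 500.4 in the root. The arrays of the globular and heart root groups lay close together, whereas the 3 heart cotyledon arrays held both the highest value of all and one near the lowest. The 2 torpedo root arrays lay below both torpedo cotyledon arrays. Both root arrays are of low correlation, so this gap cannot be told apart from what sets these arrays apart. In bulk captures, less RNA per cell and fewer cells of a type cannot be told apart.

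Of the 3 RNA-binding protein genes, AT5G40490, with RNA recognition motifs, varied least (SD 1.05). Globular captures gave 1796, 1271 and 948 in the apical and 1093, 1765 and 1473 in the basal part, and heart captures 2619.9, 875 and 501 at the cotyledon and 1257, 746 and 1282 at the root pole. Torpedo captures gave 225, 329 and 559.8 in the meristem, 1044, 832 and 883 in the apical part, 848, 84.5 and 779.6 in the basal part, 767 and 303 in the cotyledon and 1008 and 334 in the root. Every meristem value was below every torpedo apical value, while the basal group was split by 1 low array, torpedo basal 5. AT1G73490, also with an RNA recognition motif, had an SD of 1.22 and ran from 149 on heart root 2 to 2728 on torpedo meristem 3. AT5G47210, an RGG-box protein gene, had a median of 728 and the widest span of all members, 177-fold, from 10.4 on torpedo root 1 to 1846 on torpedo apical 6.

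2 members serve protein turnover. RPN12a, a lid subunit of the regulatory particle of the proteasome, had an SD of 1.08. Its signal was 1028, 530.5 and 364 in globular apical and 686, 713 and 566 in globular basal captures, and 1456, 185 and 156 in heart cotyledon and 1358, 520.3 and 2009 in heart root captures. The torpedo values were 199, 831 and 260.1 in the meristem, 919.8, 1231 and 739.5 in the apical part, 529, 611 and 1024 in the basal part, 4158 and 407 in the cotyledon and 375 and 530.0 in the root. The globular groups overlapped, as did the heart groups. Both torpedo root values lay below all torpedo apical values, and both root arrays are of low correlation. The 2 torpedo cotyledon arrays were the farthest apart. UBC28, a ubiquitin-conjugating enzyme gene, was less steady (SD 1.33). It read 2050.5, 884 and 523 in globular apical and 2051, 1951 and 325 in globular basal captures, and 778, 372 and 3759 in heart cotyledon and 1294, 675 and 3466 in heart root captures. In torpedo captures UBC28 read 245, 754 and 85.8 in the meristem, 1565, 2465 and 1233 in the apical part, 1635, 665 and 3232 in the basal part, 3038 and 1462 in the cotyledon and 354 and 705 in the root. Apart from 1 meristem array above the lowest basal one, the meristem values were under those of the apical and basal parts.

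Secretion and folding were represented by 3 single genes and 1 probe set of 2 genes. AT2G34250 encodes the alpha subunit of the SEC61 channel, through which proteins enter the endoplasmic reticulum (SD 1.12). Its globular values were 736, 628 and 653 in the apical and 703, 859.5 and 200.2 in the basal part, and its heart values 793, 269 and 123 at the cotyledon and 639.7, 276 and 561 at the root pole. In torpedo embryos the SEC61 gene read 88.8, 847 and 169 in the meristem, 1297, 1447 and 1166 in the apical part, 1206, 377 and 1253 in the basal part, 1008 and 318 in the cotyledon and 172 and 540.4 in the root. Torpedo apical captures had the highest group mean and did not overlap with the meristem, but torpedo basal 5 lay below 1 meristem array. A probe set shared by AT5G50460 and AT4G24920, which encode the small gamma subunit of the same channel, had an SD of 1.30 around a median of 508. AT4G02450, a p23 co-chaperone of HSP90, ran from 36.2 on heart cotyledon 2 to 1762 on torpedo meristem 3. The glutaredoxin gene AT5G20500 had a median of 978 and ran from 191 on heart cotyledon 3 to 16718 on torpedo cotyledon 1.

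Among genes of organelles and metabolism, MAB1, the beta subunit of mitochondrial pyruvate dehydrogenase, had the lowest SD (1.18). It read 932, 569.8 and 183 in globular apical and 820.1, 1321 and 2821 in globular basal captures, and 1069, 387 and 343 in heart cotyledon and 917, 1174 and 129 in heart root captures. Torpedo values of MAB1 were 173, 1056 and 1596 in the meristem, 802, 965 and 938 in the apical part, 649, 1724 and 810.0 in the basal part, 136 and 1927 in the cotyledon and 406 and 377 in the root. The torpedo apical arrays were close to each other, whereas arrays of the meristem, cotyledon and heart root groups differed several-fold within their group. AT5G19760, a mitochondrial dicarboxylate and tricarboxylate carrier, ran from 27.1 on torpedo root 1 to 1847 on heart cotyledon 2, and OEP16-3, of a family of organelle pore proteins, from 104 on torpedo root 3 to 5202 on globular apical 3.

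AT3G58610 encodes ketol-acid reductoisomerase, a plastid enzyme of branched-chain amino acid synthesis (median 2178, SD 1.27). The globular values were 1695, 1059 and 1452 in the apical and 4132, 1115 and 1348 in the basal part, and the heart values 3059, 437 and 7729 at the cotyledon and 2322, 7475 and 2178 at the root pole. Torpedo embryos gave 689, 2259 and 671 in the meristem, 5510.1, 5441 and 6314 in the apical part, 3968, 2559.5 and 5050.5 in the basal part, 1542 and 1916 in the cotyledon and 462 and 518 in the root. All 3 meristem values lay below all apical and basal values of the torpedo stage, and both root values below both cotyledon values. Both root arrays and torpedo meristem 1 are of low correlation. AT2G26500, a nuclear-encoded subunit of the cytochrome b6f complex, ran from 81.3 on heart cotyledon 2 to 4466 on heart cotyledon 3. AT1G12000, the beta subunit of pyrophosphate-dependent phosphofructokinase, ran from 24.2 on heart root 2 to 3639 on heart cotyledon 3.

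Chromatin was represented by 1 single gene, the histone H2B gene AT2G37470 (median 576, range 16.1 on torpedo meristem 1 to 1979.5 on torpedo cotyledon 1). A further probe set matched AT1G09200, AT5G65360, AT5G10400, AT5G10390 and AT3G27360, which encode histone H3, and had an SD of 1.18 around a median of 653. Which of those H3 genes gave the signal cannot be told from 1 probe set.

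Of the 23 genes given a role, 7 were placed under cell wall and secreted proteins, the broadest and most frequent of the roles used here. Its share among other bright probe sets was not counted, so the number marks no theme of the members. AT1G71691, a GDSL-type lipase or esterase, was the brightest member with a single gene (median 3531, SD 1.44). Globular signals of AT1G71691 were 7608, 3006 and 3182 in the apical and 8469, 4656 and 3555 in the basal part, and heart signals 4309.9, 329.9 and 6154 at the cotyledon and 3531, 2359 and 9899.5 at the root pole. Torpedo signals were 1280.4, 2129.8 and 13622 in the meristem, 4025, 5083 and 2519 in the apical part, 4825, 3151 and 4081 in the basal part, 2896 and 635 in the cotyledon and 214 and 735 in the root. The lowest values stood on torpedo root 1 and heart cotyledon 2, and the highest on torpedo meristem 3. AT2G34700, of the pollen Ole e 1 family, had a median of 2302 and ran from 149 on torpedo root 1 to 7385 on torpedo cotyledon 1. AT2G28790, an osmotin-like gene, had a median of 1579 and ran from 132 on heart root 2 to 19101 on globular basal 3. The cell wall protein gene AT3G08030, of the DUF642 family, varied least of the 7 (SD 1.25), and ran from 65.9 on heart cotyledon 3 to 2508 on torpedo basal 5. The SD was 1.39 for AT3G53190, a pectate lyase-like gene, 1.48 for AT5G56590, of glycosyl hydrolase family 17, and 1.51 for scpl25.

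**Figure D2:**
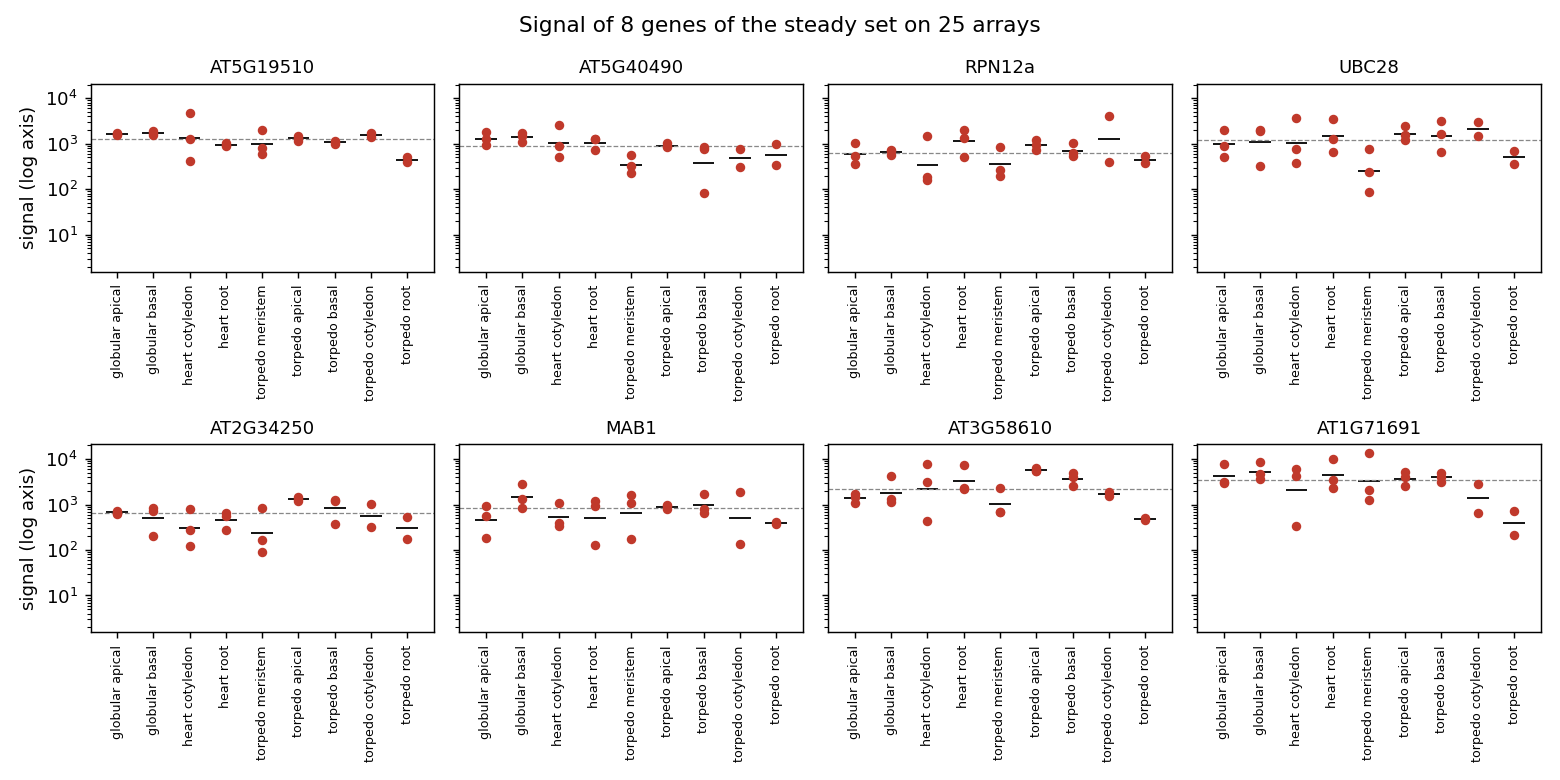
Signal (MAS5 intensity, log axis) of 8 members in the 9 groups; dots are arrays, black bars geometric means of a group and the dashed line the median over 25 arrays. AT5G19510 stays between 406 and 4762, and AT1G71691 spans 214 to 13622.

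Among members given no role here, AT3G32930 (SD 0.86) ran from 266 on heart root 2 to 2902 on heart cotyledon 3, and AT2G41990 (SD 0.99) from 156 on globular basal 3 to 1691 on heart root 3. AT3G50250 (SD 1.00) ran from 74.8 on torpedo basal 5 to 1347 on globular basal 3, AT4G14420 (SD 1.09) from 51.7 on torpedo meristem 1 to 2081 on globular basal 1, and AT1G04660 (SD 1.24) from 166 on torpedo basal 5 to 4039 on torpedo apical 5. The lowest SD of all 78 members, 0.74, belonged to the unnamed probe set 264377_at, with a median of 522 and a range from 204 on torpedo meristem 3 to 1502 on heart root 3. The brightest member, 262985_s_at, had no gene in the table either and a median of 5218. The median SD of the members was 1.18 among arrays of the same group, against 1.87 in the other bright probe sets, and 0.94 among the group means, against 1.60. A mean of 2 or 3 arrays varies less than a single array, so the 2 kinds of SD are not set against each other.

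The median of the members' group means was near their 25-array medians in some groups and below them in others. The median deviation of the members, on the log2 scale, was 0.10 in globular apical and -0.03 in globular basal captures, and -0.65 at the heart cotyledon and 0.02 at the heart root pole. At the torpedo stage it was -0.67 in the meristem, 0.35 in the apical part and 0.18 in the basal part, and -0.04 in the cotyledon and -1.45 in the root. A median near 0 did not mean that members stayed put: in torpedo cotyledon captures the quartiles of the members were -0.75 and 0.76, so members deviated both ways. The 3 groups with low members hold the 4 arrays of low correlation. The other bright probe sets had their lowest group medians in the same groups, at -1.32 in heart cotyledon, -1.33 in the torpedo meristem and -2.95 in torpedo root captures.

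By array, the members' median deviation was -1.53 on heart cotyledon 2, -1.55 on torpedo meristem 1, -1.76 on torpedo root 1 and -1.09 on torpedo root 3. The other bright probe sets stood at -3.67, -2.76, -3.91 and -1.82 on these arrays, and the bright ribosomal protein probe sets at -4.05, -1.90, -4.67 and -1.33. For 42 of 78 members the lowest of the 25 values lay on 1 of these 4 arrays. Members were nearer to their medians than the other bright probe sets were: on 25 of 25 arrays, a larger share of members lay within 1 log2 unit of its median. On torpedo root 1 that share was 18 of 78 members (23.1%), against 13 of 404 other bright probe sets (3.22%), and on torpedo apical 5 it was 57 members (73.1%), against 281 others (69.6%). A signal of 100 or more on every array was seen for 35 of 78 members (44.9%), against 32 of 404 (7.92%), and 10 members read 200 or more on every array. These arrays chose the members, so the shares describe the choice.

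**Figure D3:**
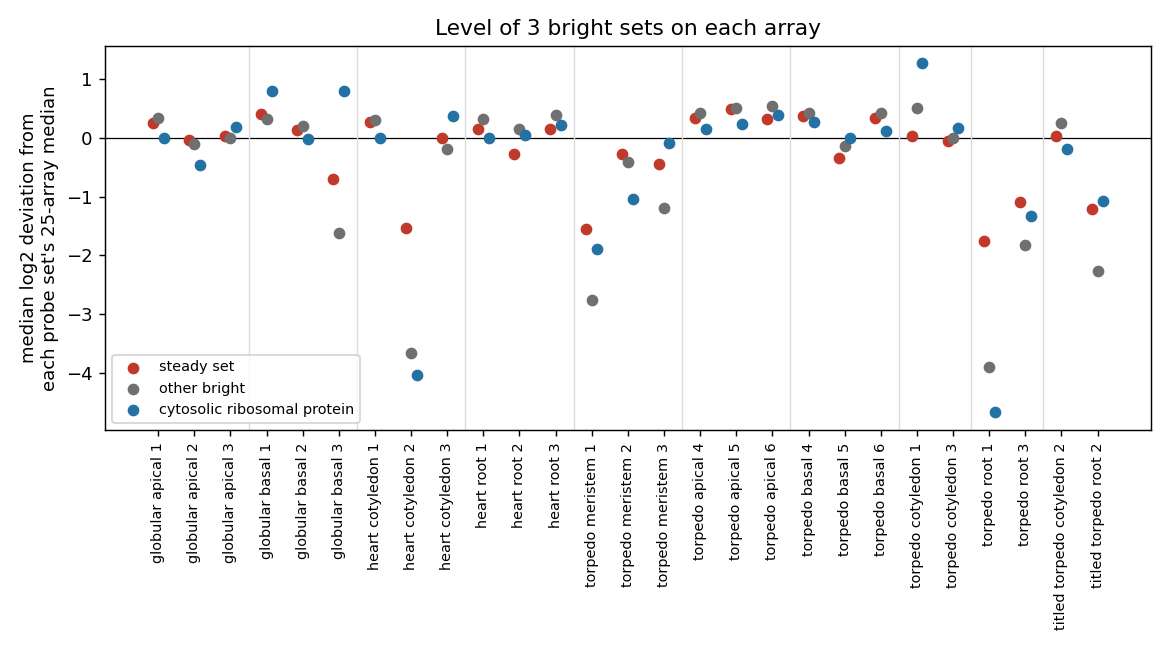
Median log2 deviation from each probe set's own 25-array median, for the 78 members, the 404 other bright and the 97 ribosomal protein probe sets on 27 arrays. Members reach -1.76 on torpedo root 1, where the other bright probe sets reach -3.91 and the ribosomal protein ones -4.67.

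The tissue comparisons ask which genes differ between the poles of the embryo. For the members they are a description only, since a low SD over these arrays limits how far 2 groups can differ. Between globular apical and basal parts, limma with Benjamini-Hochberg adjustment called 0 of 78 members at 0.05, against 0% of all 20890 probe sets tested. For heart cotyledon against root it called 0 members, against 0.00957% of all. For torpedo apical against basal it also called 0, against 0.091%, and for torpedo cotyledon against root 0, against 0.00957%. In each of these comparisons few probe sets of the whole array passed. The torpedo meristem against the mean of the apical and basal parts gave 0 members, against 0.168%, and the F test over the 9 groups gave 0, against 1.25%. At an unadjusted p under 0.05 there were 0 members for the globular stage, against 2.69% of all probe sets, 7 for the heart stage (8.97%), against 5.32%, and 1 for torpedo apical against basal (1.28%), against 3.91%. There were 15 for torpedo cotyledon against root (19.2%), against 11.7% of all, 15 for the meristem (19.2%), against 20.6%, and 8 by the F test (10.3%), against 22.2%. With adjusted backgrounds this low, 0 of 78 members tells nothing particular about them, and it does not show equal levels. These backgrounds also rest on single arrays. For the meristem, 35 probe sets were called in all, against 1409 without torpedo basal 5 and 215 without torpedo meristem 2. None, 0, were called without torpedo apical 4, without torpedo basal 4 or without torpedo basal 6. By the F test 262 were called in all, and 54 to 649 with 1 array left out.

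The fitted differences of the members had a median of -0.11 for globular apical minus basal, with a median standard error (SE) of 1.04, against a median of -0.06 over all probe sets. They had a median of -0.52 for heart cotyledon minus root, against 0.29 over all, and 0.31 for torpedo apical minus basal, against -0.14 over all. For torpedo cotyledon minus root the median was 1.39 (median SE 1.28), with 64 members higher in cotyledon, against -0.35 over all. For the torpedo meristem it was -0.92 (median SE 0.90), with 74 members lower in the meristem, against 0.47 over all. The other bright probe sets moved the same way in each comparison except the globular one (0.10): their median was -1.44 for heart cotyledon minus root, 0.34 for torpedo apical minus basal, 3.03 for torpedo cotyledon minus root and -1.64 for the meristem. Of the 404, 346 (85.6%) were higher in torpedo cotyledon and 374 (92.6%) lower in the meristem, so the shifts are shared by bright probe sets. Without heart cotyledon 2 the heart median was 0.06 in place of -0.52, with 42 members higher and 36 lower at the cotyledon pole. Without torpedo meristem 1 the meristem median was -0.77, with 61 members lower. Both torpedo root arrays are of low correlation, so the torpedo root difference cannot be told apart from what sets these arrays apart. In no comparison did a member have a 95% interval that stayed within 1 log2 unit of 0 on both sides, so a 2-fold difference could not be bounded for any member.

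Single genes show the size of these gaps, and apart from AT5G19510 those below stand toward the far end of the members. These genes were picked with the values known. The highest fitted difference of a member was 4.00 for torpedo cotyledon minus root. The lowest was -2.73 for heart cotyledon minus root, and for the meristem it was -2.60. AT2G34700 had a fitted difference of 3.86 (SE 1.49) between torpedo cotyledon, at 7385 and 3207, and torpedo root, at 149 and 701. AT5G20500 differed by 3.54 (SE 1.40), with 16718 and 2849 in the cotyledon and 426 and 803 in the root. In both genes the cotyledon arrays lay above the root arrays without overlap, but with only 2 arrays per group. The share of all probe sets that do so was not counted, and both root arrays are of low correlation. UBC28 stood at -2.60 (SE 0.94) in the meristem against the apical and basal parts, AT3G58610 at -2.17 (SE 0.96) and AT2G34250 at -2.08 (SE 0.80). AT5G19510 stood at -0.26 (SE 0.79) there, and at -0.04 (SE 0.91) between globular apical and basal parts. The unnamed probe set 258155_at had 234, 244 and 319 in the meristem, against 1819, 2451 and 2006 in the apical and 1395, 579.8 and 1837 in the basal part, and differed by -2.50 (SE 0.67); it was picked after its values were seen. All 3 meristem arrays lay below all 6 others in it, and torpedo meristem 1 is of low correlation. The share of all probe sets with meristem arrays set apart was not counted, here or for the genes above.

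Groups of 3 arrays that did not overlap were about as common among members as among all probe sets. Globular apical and basal captures did not overlap for 5 of 78 members (6.41%), against 8.74% of all probe sets tested. At the heart stage this held for 4 members (5.13%), all lower at the cotyledon pole, against 7.57%. For torpedo apical and basal captures it held for 8 members (10.3%), of which 7 were higher in apical, against 11.6%.

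**Figure D4:**
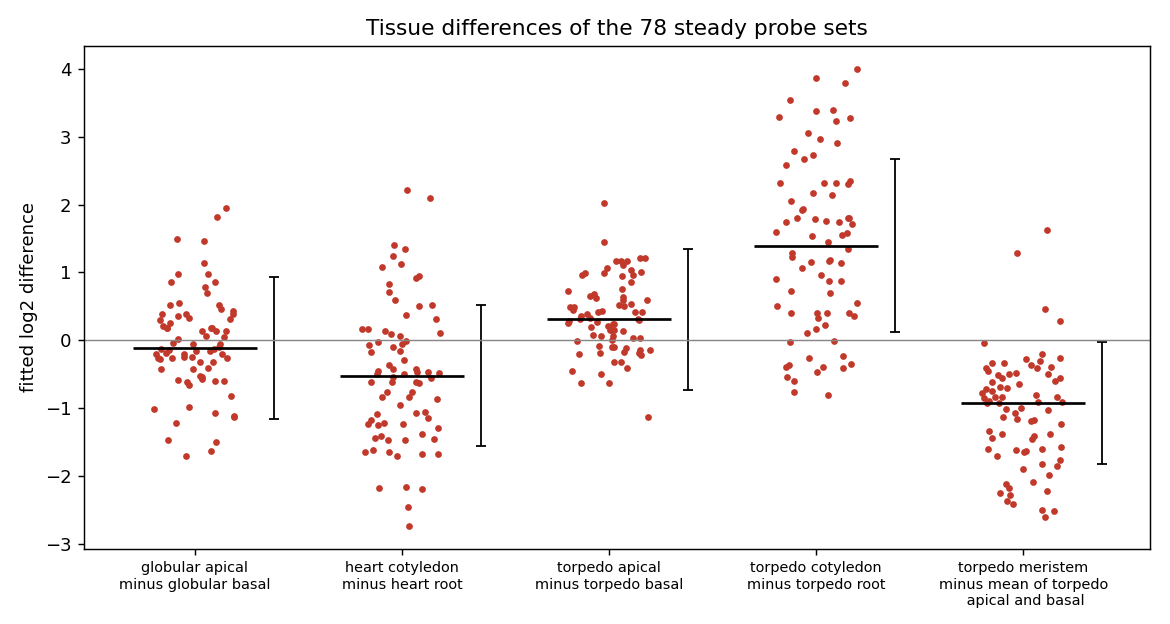
Fitted log2 differences of the 78 members in 5 comparisons; dots are members, bars medians, and error bars reach 1 median standard error to each side of the median. Medians run from -0.92 for the meristem to 1.39 for torpedo cotyledon minus root.

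The 2 arrays without a group had no part in the choice. On the array titled torpedo cotyledon 2, 56 of 78 members (71.8%) lay within 1 log2 unit of their 25-array median, against 281 of 404 other bright probe sets (69.6%). Members were thus about as near to their usual level there as other bright probe sets were. On the array titled torpedo root 2, which has a median correlation of 0.340 with the grouped arrays, 23 members (29.5%) did so, against 74 others (18.3%). The median deviation there was -1.22 for the members and -2.27 for the others. AT5G19510 read 1446 and 2743 on the 2 arrays, AT5G40490 417 and 766, UBC28 2085 and 165, and AT1G71691 3255 and 340.2. On the array titled torpedo root 2, 12 members (15.4%) lay below their own range over the 25 arrays, against 5.94% of the others. The rule chose members for a narrow spread on those arrays, with a median span of 39.03-fold against 478-fold. A range that narrow is left more easily, so this contrast follows from the choice. With 1 array each, these shares have no replicate check.

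The rule was also run on the arrays of 1 part of development and read on the rest. Chosen on the 12 globular and heart arrays, 69 probe sets had a median SD of 1.00 there and 1.45 on the 13 torpedo arrays, against 1.94 on those torpedo arrays for the 441 other bright probe sets. Of the 69, 59 (85.5%) had a lower torpedo SD than the median of the others. Chosen on the torpedo arrays, 88 probe sets had a median SD of 1.39 on the globular and heart arrays, against 2.02 for the others, and 81 (92.0%) lay under the others' median. Low spread at some stages thus went with lower spread at the stages not used, although arrays of low correlation lie on both sides. The chosen sets were also dimmer, with a median signal of 707 against 972 for the others in the first case and 659 against 870.0 in the second, and SD was lower in dimmer probe sets. The part of brightness in the lower spread was not tested. Both choices shared 15 probe sets, which are 21.7% of the 69 and 17.0% of the 88. With a single gene name these were AT5G19510, AT2G41990, AT3G50250, AT5G40490, RPN12a, AT2G34250, MAB1 and AT1G73490.

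Within the 6 torpedo apical and basal arrays, whose median correlations were 0.516 to 0.564, the members were hardly steadier than other bright probe sets. Their median SD there was 0.600, against 0.614 for the others and 0.417 for the ribosomal protein probe sets. The rule applied to those arrays alone chose 66 probe sets, of which 11 were members. Applied without the 4 arrays of low correlation, it chose 54 probe sets with a median signal of 2467, and 25 of the 78 members were among them. In that case 44 ribosomal protein probe sets were among the 100 of lowest SD, against 21 with all 25 arrays. AT5G19510 was chosen in it with an SD of 0.55, AT2G34700 with 0.74, AT2G37470 with 0.86, AT1G71691 with 0.92, AT2G34250 with 1.00 and RPN12a with 1.01. UBC28, MAB1 and AT5G40490 were not.

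**Figure D5:**
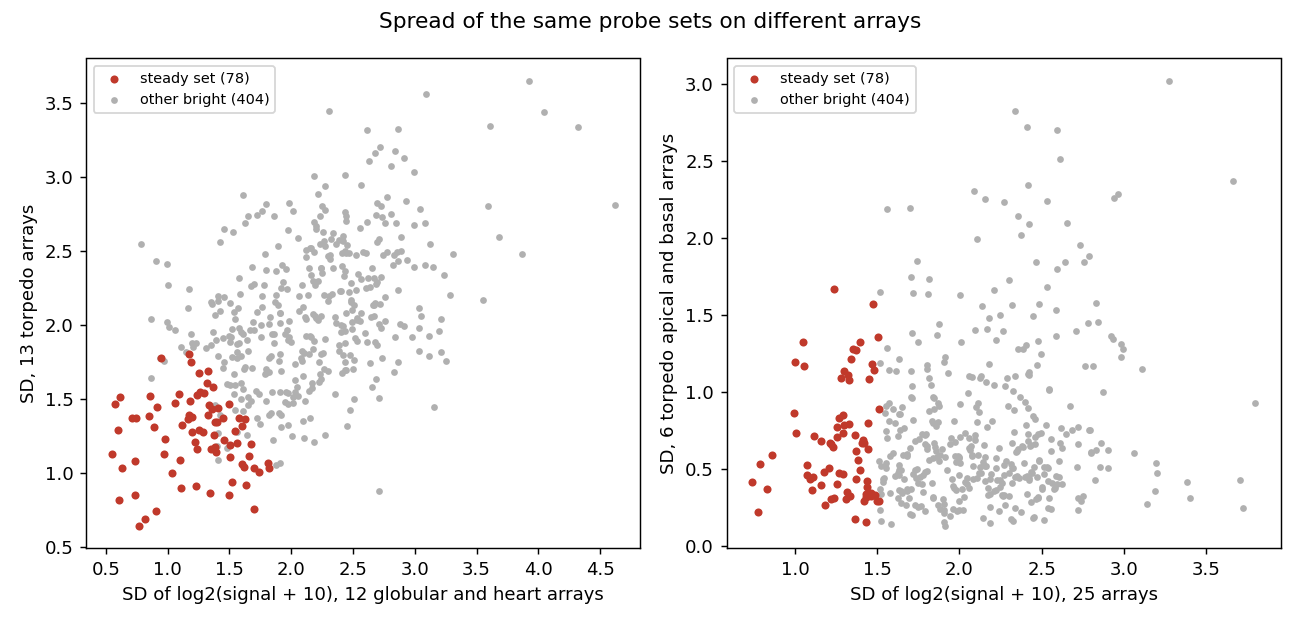
SD of log2(signal + 10) of the 78 members and 404 other bright probe sets on torpedo arrays against globular and heart arrays (left), and on the 6 torpedo apical and basal arrays against all 25 (right). The members form the low end of the left plot and of the horizontal axis of the right plot, but on the vertical axis of the right plot their median is 0.600 and that of the others 0.614.

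Of 28 genes in common use as references for Arabidopsis, 12 had a single-gene probe set and 0 of those 12 were members. The other 16, ACT2 and UBQ10 among them, could not be looked up by name, and the 40 unnamed members may include some of them. Only GAPC2, a cytosolic glyceraldehyde-3-phosphate dehydrogenase gene, was bright enough to enter the ranking (median 756), and its SD of 1.58 put it at rank 127 of the 592. It ran from 106 on heart cotyledon 2 to 14624 on torpedo cotyledon 1. The other 11 had medians under 500, so the rule could not choose them. They include AT2G32170 (SD 0.70, median 101), MON1 (SD 1.00, median 65.6), TIP41-like (SD 1.24, median 69.8), UBC21 (SD 1.27, median 102), TUB6 (SD 1.35, median 23.2) and RHIP1 (SD 1.67, median 319.5). TUB5 and the clathrin adaptor gene had SDs of 1.14 and 1.46, and AT4G33380, the F-box and the PPR gene had 0.83, 0.81 and 0.85. Their range of SD overlaps that of the members at a lower signal.

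The pair of members with the most alike group means was AT2G37470, the H2B gene, and OEP16-3, with a Pearson correlation of 0.92 over the 9 group means. The median over the 561 pairs of the 34 genes was 0.40. All pairs share the same arrays, among them the 4 on which most members were low.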

How the data were processed

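The deposited values are MAS5 intensities on a linear scale, per the submitters' processing notes; its version is not given in the sources used here. For each array the trimmed mean was 99.9 to 100.0, so no scaling was added. Values of 18 arrays are rounded to 1 decimal and those of 9 are not. The unrounded arrays are those of the torpedo meristem, apical and basal groups, so the form of the values coincides with these groups. Its part in the differences was not tested. Groups were taken from the labels. Probe sets were named from a platform table (13513 with 1 gene, 13436 of them matched to RefSeq names of TAIR10.1). Ribosomal protein genes were removed with a hand-written list of 152 loci, and no sequence was available.

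The members, lists and tests were chosen with earlier results of these data known. Named are the single-gene members with the 12 lowest SDs, the 8 highest medians and the 3 nearest the limit. Further genes were named by role after their values were seen.

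Differences were fitted with limma 3.58.1 (R 4.3.3; lmFit, 1 mean per group, eBayes with trend) on log2(intensity + 10), over 20890 probe sets that reach 50 on at least 2 of the 25 arrays, with Benjamini-Hochberg adjustment, 2-sided, at 0.05. Such differences understate the change of dim probe sets. Tested on simulated data for torpedo apical minus basal (20890 probe sets), the fit found 0% of planted log2 differences of size 1, 0.5% at size 2 and 67.7% at size 4. The number of arrays limits the precision. Alternatives were other pseudocounts, floors, scalings and spread measures, no trend, array weights, a replicate block and leaving out each array.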

Additional observations from a re-analysis of the deposited data

How the results depend on the processing

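Membership depends on the floor, the spread measure and the arrays. Of the 78 members, 6 were chosen again with a floor of 250, 17 with 1000, 29 with the median absolute deviation and 49 by the spread within groups. Only globular and heart arrays kept 38 and only torpedo arrays 40. In settings added after seeing the data, 25 were kept without the 4 arrays of low correlation and 11 on the 6 torpedo apical and basal arrays. Leaving out 1 array in turn kept 58 to 75; the lowest was without torpedo root 1. Pseudocounts of 1 and 50, quantile normalization, centring and all 27 arrays kept 65 to 74. On the array titled torpedo root 2, 11 members lay within 0.5 of their median.

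By limma, 0 members were called in 192 of 198 fits. Without trend 1 was called for the meristem (258155_at, of 30 probe sets in all) and 1 by the F test (247279_at, of 264); array weights called 1 (of 572) and 5 (of 3788). Leaving out 1 array called 0 to 2 members for the meristem (2 of 1409 probe sets in all, without torpedo basal 5) and 0 to 1 by the F test (1 of 425, without heart cotyledon 2). With the replicate number as a block, 0 members were called. Same-numbered arrays deviated together at r of -0.09 to 0.38 over 11 pairs, with 2 pairs over 0.1. Both of those were heart pairs, at 0.38 and 0.15, and the remaining heart pair stood at 0.07. The torpedo cotyledon and root pairs share 1 value, 0.09, because deviations from a mean of 2 arrays mirror each other. Whether the numbers pair the arrays is therefore not settled. The cause of the changes in the calls was not tested. 40 unnamed members limit any statement on function, and 2 or 3 arrays per group limit every difference.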
